A study of Homo sapiens with 4 samples.

Results

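The genes described here are *MEG3*, *MEG8*, *MEG9*, *DLK1*, *RTL1* and *DIO3*, the 6 named members of the *DLK1*-*MEG3* imprinted locus on chromosome 14. They were selected on measured values of these arrays, since *MEG3* had been among the largest differences between drug-treated and mock-treated cells, and the other 5 genes were taken for their place in the locus. Every probe whose design accession belongs to a member was used, which gave 20 of the 58201 gene probes of the array and 6 of the 25006 named genes. Cells were HML58-3, a derivative of the colon cancer line HCT116 in which a methylated marker promoter drives a luciferase reporter. The 4 conditions were mock treatment, DAC (decitabine, a DNA-demethylating drug) and the DAC prodrugs OR-2003 and OR-2100. Each drug was given at 1 μM on day 1, and cells were collected on day 5. All 4 groups share the reporter line and the culture medium, and each is 1 one-colour expression array, so that no p-value is given and differences could not be checked against replicates.

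In an imprinted locus, the parental copy decides which genes are read. *DLK1*, *RTL1* and *DIO3* encode proteins and are known to be read from the paternal copy, whereas *MEG3*, *MEG8* and *MEG9* are long noncoding RNAs of the maternal copy, whose stretch also holds large families of snoRNAs and miRNAs. DNA methylation between *DLK1* and *MEG3* and at the *MEG3* promoter marks the copy from which *MEG3* is not read, and loss of *MEG3* RNA is known from many tumours. Expression probes do not tell the parental copies apart, and DNA methylation was not analysed here.

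The start regions of the members show how much methylatable sequence lies there, since DNA methylation falls on cytosines of CG pairs. RefSeq start sites of build GRCh38.p14 were found for 4 of the 6 members, and for the others, *DLK1* and *MEG8*, no sequence is printed. The 250 bases before the start are given 5′ to 3′ on the strand of the gene, with CG pairs in capitals. They lie at chr14:100825858-100826107 on the plus strand for *MEG3*, chr14:101561245-101561494 on the plus strand for *DIO3*, chr14:101069661-101069910 on the plus strand for *MEG9* and chr14:100903723-100903972 on the minus strand for *RTL1*.
MEG3: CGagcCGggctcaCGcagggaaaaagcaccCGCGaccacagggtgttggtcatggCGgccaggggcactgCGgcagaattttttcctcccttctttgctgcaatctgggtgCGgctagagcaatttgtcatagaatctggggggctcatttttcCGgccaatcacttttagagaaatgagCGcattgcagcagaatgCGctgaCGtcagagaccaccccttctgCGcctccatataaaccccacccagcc
DIO3: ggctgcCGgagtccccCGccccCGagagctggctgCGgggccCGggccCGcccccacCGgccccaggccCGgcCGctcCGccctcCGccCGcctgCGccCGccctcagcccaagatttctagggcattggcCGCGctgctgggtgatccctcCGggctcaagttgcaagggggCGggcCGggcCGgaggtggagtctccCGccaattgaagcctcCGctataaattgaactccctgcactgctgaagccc
MEG9: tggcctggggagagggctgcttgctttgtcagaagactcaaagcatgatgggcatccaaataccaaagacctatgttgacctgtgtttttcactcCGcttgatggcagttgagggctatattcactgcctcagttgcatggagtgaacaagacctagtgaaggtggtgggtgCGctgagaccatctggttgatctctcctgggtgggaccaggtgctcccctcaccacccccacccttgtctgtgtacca
RTL1: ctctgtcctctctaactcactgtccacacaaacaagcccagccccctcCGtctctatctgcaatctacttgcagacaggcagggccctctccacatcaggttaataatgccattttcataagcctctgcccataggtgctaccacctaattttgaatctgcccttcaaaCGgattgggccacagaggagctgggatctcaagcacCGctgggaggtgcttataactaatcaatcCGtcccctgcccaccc

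The *MEG3* window held 13 CG pairs and the *DIO3* window 22, against a median of 11 over the 27303 windows of this length in the table. The *RTL1* window held 4 and the *MEG9* window 2. Of all windows, 46.4% held as many CG pairs as *MEG3* or more, 27.6% as many as *DIO3*, 69.9% as many as *RTL1* and 84.6% as many as *MEG9*. The *MEG3* window was thus near the middle of all genes, as the plot of CG pairs shows. Fixed letters were searched on both strands. TGACGTCA, the cyclic AMP response element, had 1 match in the *MEG3* window and in 1.77% of all windows. TGCCGC, the core of the ZFP57 motif, also had 1 match before *MEG3* and was in 12.6% of windows. GGGCGG, a GC box, had 6 matches before *DIO3* and 0 before *MEG3*, *MEG9* and *RTL1*, and was in 42.3% of windows. A match describes the letters and is not a binding site.

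Each level is a log2 intensity relative to the array's own 75th percentile over gene probes, which stands at 0. Following the study's methods, a probe counted as induced if drug exceeded mock by 2-fold or more and the drug level was no lower than -1. The mirror case, a rule added here, counted as reduced. For a probe at background in mock-treated cells the fold is a lower bound ("at least"), whose denominator was the lowest mock signal that counted as well above background, or the probe's own if that was higher. Values for the 3 drugs are given in the order DAC, OR-2003 and OR-2100. Each member probe had 1 spot. The scanner software gave these spots an error of 10.0 to 10.4% of the signal on the drug arrays for the 18 probes well above background there, and of 11.3 to 101% for the same probes on the mock array. Probes with 10 spots had a spread of 0.088 (log2 SD) between spots, or 0.12 for a difference of a pair of spots, which holds no difference between cultures. The arrays had 31601 to 33282 probes well above background, and no gene spot was saturated. Of 5 epithelial markers, 4 were at a positive level of -1 or more on every array, and *VIL1* was below it on all 4. *EPCAM* was 0.356, 0.348 and 0.365-fold of mock with the drugs, and *CDH1* 0.469, 0.441 and 0.422-fold. None of 5 markers of blood, endothelial and glial cells reached a positive level on any array. Their log2 summed level was -0.53 on the mock array and -0.01 to 0.11 with drugs, and *PECAM1* was at least 8.40, 8.90 and 9.05-fold higher. The part of these marker differences in the results was not tested.

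The noncoding members *MEG3*, *MEG8* and *MEG9* went from low or undetected in mock-treated cells to clearly measured with each of the 3 drugs. Of the 20 member probes, each of DAC, OR-2003 and OR-2100 induced 17, against 3.44%, 3.53% and 3.50% of all gene probes. The same 17 were induced by all 3 drugs, against 3.13% of all probes, and 0 were reduced by all 3, against 3.41%. On the mock array 15 of the 20 were not well above background, and 13 of these were well above it with every drug, a step taken by 4.77% of all gene probes. The members had been selected on the same differences, so that these shares describe them and support nothing further. Over the 20 probes, the median log2 difference to mock was 5.49, 5.44 and 6.05, beside -0.13, -0.10 and -0.25 for all gene probes. These medians rest on mock signals near background. With bounds in place of such differences the median over the 18 probes with a fold was 5.89, 5.88 and 6.31. The 18 leave out *RTL1* and the dim *DIO3* probe, which had low differences. The medians over 20 and over 18 probes therefore do not show what the bounds change. The count was 11 with each drug when the percentile was taken over probes well above background on all arrays, and 4 when probes at background on either array were left out. In bulk RNA, more cells with the RNA and more RNA per cell cannot be told apart.

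**Figure D1:**
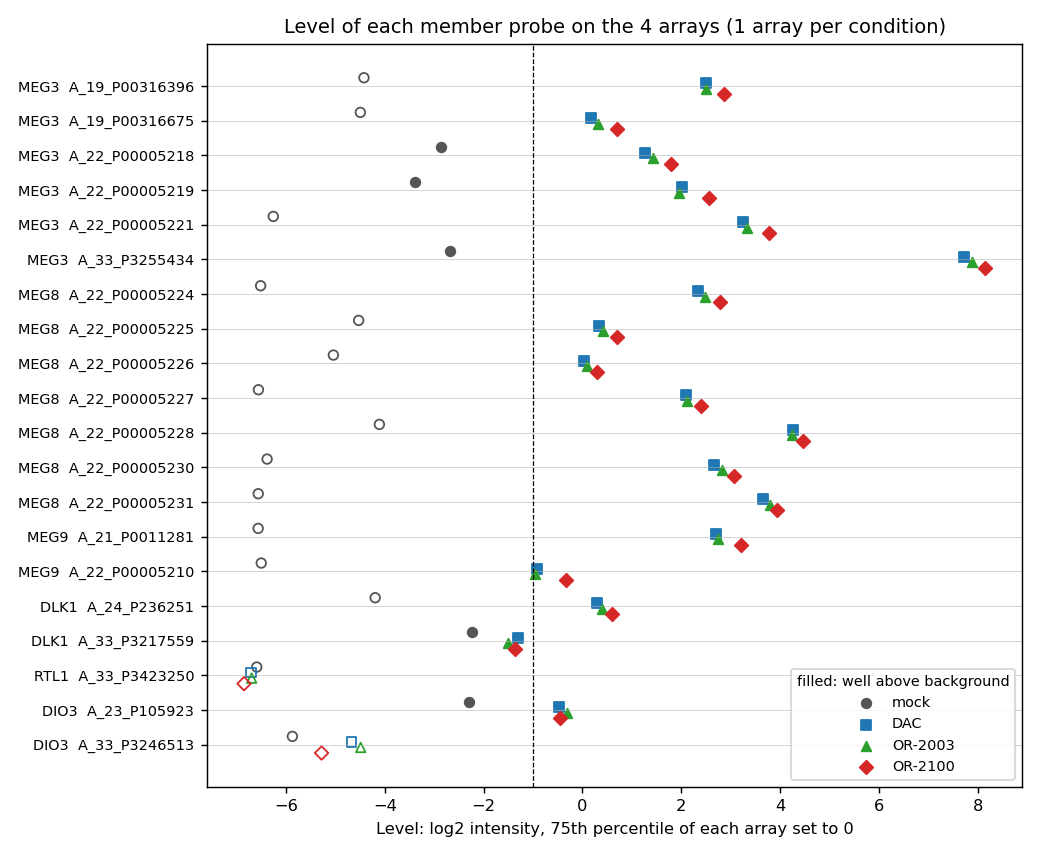
Level of each of the 20 member probes (log2 intensity, 75th percentile of each array at 0) on the mock, DAC, OR-2003 and OR-2100 arrays, 1 array each; open symbols were not well above background and the dashed line is the level threshold of -1. All probes of *MEG3*, *MEG8* and *MEG9* cross the line from left to right with every drug, while *RTL1* stays between -6.59 and -6.85.

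*MEG3*, a noncoding RNA tied to growth arrest, was induced by every drug at each of its 6 probes. The brightest, A_33_P3255434, was at -2.68 on the mock array, 7.71 with DAC, 7.89 with OR-2003 and 8.15 with OR-2100. All 4 arrays measured it well above background, and its signal was 1346, 1519 and 1828-fold of mock, in this order. The mean of its 3 log2 differences, 10.60, ranked 3 among the 27921 probes that every array measured well above background. Mock-treated cells held a measurable signal of this probe, 23.7 intensity units, against 36967, 39338 and 50060 with the drugs. With normexp background correction its log2 differences were 8.56, 8.72 and 9.02 in place of 10.39, 10.57 and 10.84.

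Of the other *MEG3* probes, A_22_P00005219 was at -3.39 on the mock array and at 2.01, 1.96 and 2.55 with the drugs, which is 42.1, 40.8 and 61.5-fold. A_22_P00005218 was at -2.86 and at 1.27, 1.42 and 1.79, or 17.6, 19.5 and 25.1-fold. Both had a measured mock level, and they ranked 48 and 111 among the same 27921 probes. The remaining 3 had no mock level well above background. A_22_P00005221 was at -6.26 on the mock array and at 3.25, 3.32 and 3.78, at least 186, 195 and 267-fold. A_19_P00316396 went from -4.42 to 2.50, 2.50 and 2.87, at least 110, 110 and 143-fold. A_19_P00316675 went from -4.50 to 0.18, 0.31 and 0.71, at least 22.1, 24.2 and 31.9-fold. All 3 probes were higher with every drug than on the mock array, where their signal was background. The 6 probes stand for several annotated transcripts of the gene, and which of these were made was not tested.

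*MEG8*, the noncoding RNA that follows *MEG3* on the same strand and hosts snoRNAs, was not well above background at any of its 7 probes in mock-treated cells, with levels from -6.56 to -4.11. With drugs all 7 were well above background and induced. Their levels were 0.03 to 4.27 with DAC, 0.08 to 4.24 with OR-2003 and 0.29 to 4.45 with OR-2100. A_22_P00005228 was at -4.11 on the mock array and at 4.27, 4.24 and 4.45 with the drugs, at least 333, 325 and 378-fold higher. A_22_P00005231 went from -6.56 to 3.65, 3.80 and 3.94, at least 245, 272 and 298-fold. The smallest bounds of the gene were 19.9, 20.7 and 23.8-fold, at A_22_P00005226.

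*MEG9*, a further noncoding RNA of the maternal copy near the far end of the cluster, was undetected in mock-treated cells and induced at both probes. A_21_P0011281 was at -6.56 on the mock array and at 2.70, 2.74 and 3.21 with the drugs, at least 127, 130 and 180-fold. A_22_P00005210 went from -6.50 to -0.92, -0.97 and -0.34, at least 10.3, 9.97 and 15.4-fold. The second probe was the induced member closest to the level threshold of -1 with DAC and OR-2003.

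*DLK1*, a membrane protein of the Notch ligand family and a preadipocyte factor, differed between its probes. A_24_P236251 was at background in mock-treated cells, at -4.20, and was at 0.30, 0.39 and 0.59 with the drugs, at least 22.6, 24.0 and 27.7-fold. A_33_P3217559 was well above background on every array, at -2.25, -1.31, -1.50 and -1.36, and was 1.91, 1.68 and 1.85-fold of mock. It was higher with each drug but fell short of the fold and of the level threshold, and was the member closest to being counted.

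*RTL1*, a retrotransposon-derived protein needed in the placenta, was the member with no signal. Its 1 probe was not well above background on any array, with levels of -6.59, -6.71, -6.70 and -6.85 on the mock, DAC, OR-2003 and OR-2100 arrays. No fold is given, since no array measured it. With 1 probe, a low signal cannot be told apart from a probe that binds poorly.

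*DIO3*, the deiodinase that inactivates thyroid hormone, ends the imprinted stretch. A_23_P105923 was at -2.30 on the mock array and at -0.48, -0.31 and -0.45 with the drugs, or 3.53, 3.97 and 3.62-fold, and was induced by each. All arrays measured it above background, and it ranked 761 of 27921 by its mean difference. The second probe, A_33_P3246513, was not well above background on any array, with levels from -5.87 to -4.49. The measured fold of *DIO3* was the smallest among the induced member probes.

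**Figure D2:**
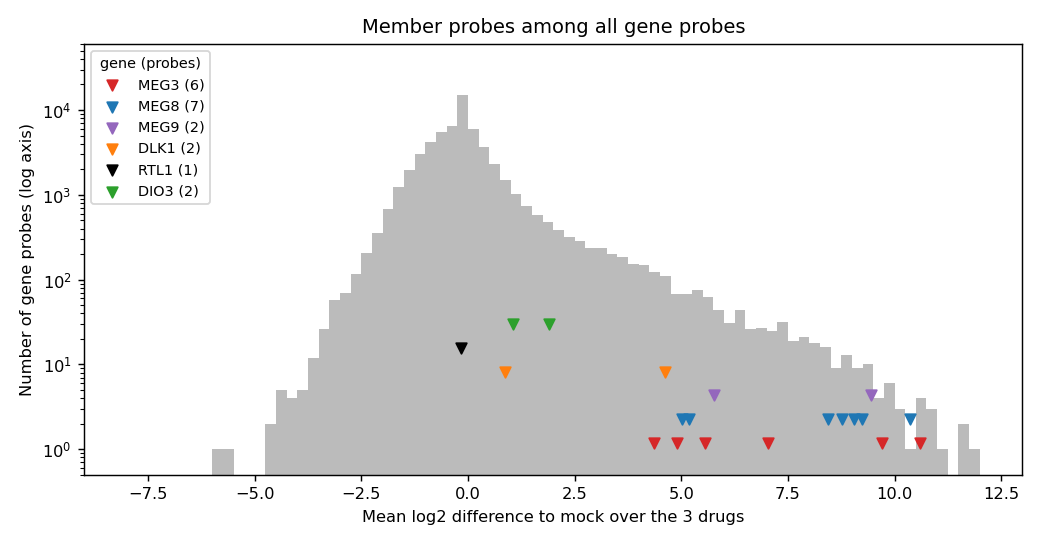
Mean log2 difference to mock over the 3 drugs (horizontal axis) for all 58201 gene probes (grey bars, number of probes on a log axis) and for the 20 member probes (triangles, whose height has no meaning). The *MEG3*, *MEG8* and *MEG9* probes lie between 4.36 and 10.60, *DIO3* and the lower *DLK1* probe between 0.86 and 1.89, and *RTL1* at -0.16.

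The extent of the change along the chromosome was read from all other genes of the RefSeq order that have a probe. This group was chosen after its values had been seen, and gene order was used without coordinates, since the array design was annotated on an earlier build. Of 120 genes between *DLK1* and *DIO3*, 48 had a probe, with 62 probes. These 62 include the probes of *MEG3*, *MEG8*, *MEG9* and *RTL1*. DAC induced 37 of the 62, OR-2003 38 and OR-2100 40, against 3.44%, 3.53% and 3.50% of all gene probes. Of the 62, 0 were reduced, beside 3.41% of all gene probes reduced by all 3 drugs. With every drug 57 of the 62 were higher, a share that was not counted over all gene probes. The counts of induced probes were 21, 24 and 24 with the percentile over bright probes, and 4 with each drug when probes at background on either array were left out. They were 54, 55 and 56 with median scaling, and 55, 56 and 56 with no level threshold. On the mock array 57 were not well above background, and 50 of the 57 were well above it with each drug, a step taken by 4.77% of all gene probes.

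The snoRNA genes made up 38 of the 48 genes with a probe. C/D box snoRNAs guide chemical modification of other RNAs, and those of this locus, *SNORD112*, *SNORD113* and *SNORD114*, lie in introns of the noncoding RNAs. They had 38 probes, 1 for *SNORD112*, 8 for *SNORD113* and 29 for *SNORD114*. On the mock array 37 were not well above background, and 37 were well above it with DAC, 38 with OR-2003 and 38 with OR-2100. The step from background to well above it with every drug was taken by 36 of the 38, against 4.77% of all gene probes. All 38 were higher with every drug, a share that was not counted over all gene probes. Of the 38, 22, 23 and 25 also reached the level threshold and were induced, against 3.44%, 3.53% and 3.50% of all gene probes. The median log2 difference of the snoRNA probes was 5.59, 5.75 and 6.01. It was 3.614, 3.680 and 4.003 where bounds took the place of differences from background. The bounds ran from 2.06 to 152-fold with DAC, 1.91 to 165-fold with OR-2003 and 2.72 to 185-fold with OR-2100.

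The largest bounds belonged to *SNORD114-21*, which went from -6.31 to 2.96, 3.08 and 3.25 with the drugs, at least 152, 165 and 185-fold. *SNORD114-15* went from -6.27 to 2.74, 2.74 and 2.95, at least 130, 131 and 150-fold. *SNORD114-23* was the snoRNA measured in mock-treated cells, at -3.73, and was 69.4, 67.1 and 80.7-fold of it with the drugs. *SNORD113-3* was at -6.46 and at 0.24, 0.05 and 0.51, at least 23.0, 20.1 and 27.8-fold. *SNORD112* stayed under the level threshold, at -2.87, -2.98 and -2.55, at least 2.67, 2.47 and 3.32-fold. *SNORD114-24* was the exception with DAC, where it was not well above background, at -4.54. Whether a probe of these families also binds other copies was not checked, so that single values are uncertain. Mature snoRNA cannot be told apart from the host RNA that holds its sequence.

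The other genes of the stretch gave little signal. The 9 probes of the 7 other genes between *DLK1* and *DIO3* had 0 induced with any drug. *LINC00524* was at least 4.40, 5.03 and 5.11-fold higher and *LINC02285* at least 4.28, 3.37 and 4.12-fold, both under the level threshold. *MIR381HG*, a host RNA of miRNAs, and *LINC02314* were not well above background on any array. *DIO3OS*, the antisense neighbour of *DIO3*, had 3 probes, 0 of them induced, and its 1 measured probe was at -3.84, -3.95, -3.53 and -3.54.

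Among the genes of the RefSeq order read on either side of the stretch, no probe was induced. Probes without a RefSeq gene name, such as the lnc- probes below, were not placed along the chromosome. Of 22 genes before *DLK1* in the RefSeq order, 8 had a probe, and the log2 differences of their 10 probes ran from -1.06 to 0.52 with DAC. *BEGAIN*, the last protein-coding gene before *DLK1* with a probe, was at 1.86, 2.38, 2.24 and 2.38 on the 4 arrays, or 1.43, 1.30 and 1.44-fold. *WARS1*, a tRNA synthetase, was lower, at 0.481, 0.523 and 0.469-fold, and was reduced by DAC and OR-2100. Of 6 genes after *DIO3*, 2 had a probe, *LINC00239* and *PPP2R5C*, and neither was induced, with log2 differences from -0.60 to -0.08.

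**Figure D3:**
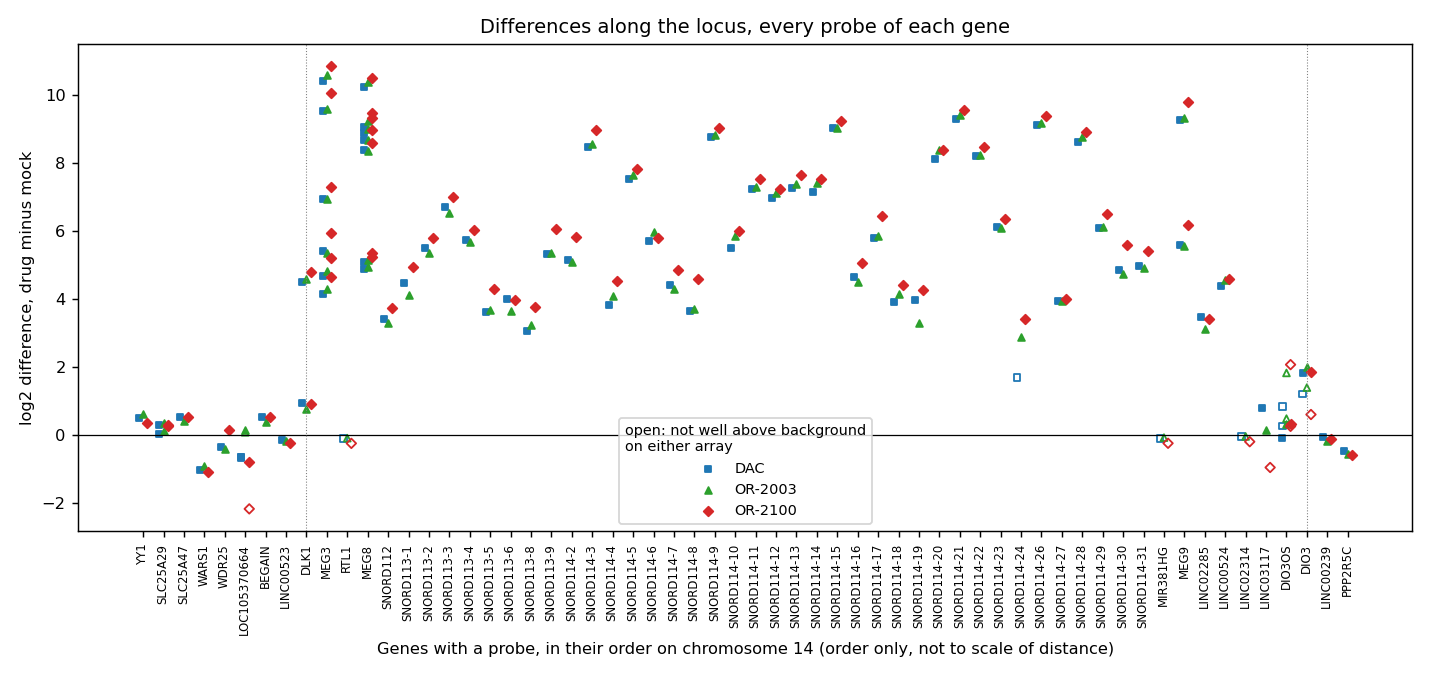
Log2 difference to mock of every probe (vertical axis) for genes in their RefSeq order along chromosome 14, order only and not to scale; squares are DAC, triangles OR-2003, diamonds OR-2100, open symbols were not well above background on either array, and dotted lines mark *DLK1* and *DIO3*. Genes before *DLK1* and after *DIO3* lie between -2.18 and 0.61, while *MEG3*, *MEG8*, the 38 snoRNA probes and *MEG9* lie above this range with every drug.

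Transcripts of the array design that carry a member's name with the prefix lnc- are not counted as members, and whether they overlap a member was not checked. All 3 drugs induced 1 of their 11 probes, against 3.13% of all gene probes. This probe, lnc-DLK1-6:9, was at -5.57 on the mock array and at 3.85, 3.96 and 3.92 with the drugs, at least 282, 304 and 295-fold. Below the level threshold, lnc-DLK1-9:1 was at least 3.63, 3.77 and 5.51-fold higher, lnc-DLK1-6:1 at least 1.76, 2.57 and 2.73-fold and lnc-RTL1-4:1 at least 1.85, 1.84 and 1.84-fold. By contrast, lnc-RTL1-2:1 was at 2.26, 2.21, 2.38 and 2.09, within 0.17 of its mock level.

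The 3 drugs were compared with each other at the same dose and day, over the 18 member probes well above background on all drug arrays. All 3 pairs were compared, with no test, and probes of 1 gene share its transcripts and are no replicates. OR-2100 was higher than DAC at 17 of 18, against 42.8% of the 30696 probes well above background on the drug arrays. It was higher than OR-2003 at 17 of 18 too, against 41.9% of those probes. The median log2 difference of the members was 0.39 over DAC (-0.05 to 0.58) and 0.28 over OR-2003 (-0.13 to 0.63). The *MEG3* probes were 0.37 to 0.55 higher with OR-2100 than with DAC, the *MEG8* probes 0.18 to 0.45 and the *MEG9* probes 0.51 and 0.58.

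Probes induced by all 3 drugs are a closer background, and OR-2100 was higher than DAC at 55.8% of these 1822 probes and higher than OR-2003 at 51.7%, with medians of 0.02 and 0.01. Single probes differed by as much as the members in either direction across the array. The central 95% of the 30696 probes lay between -0.50 and 0.52 for OR-2100 minus DAC and between -0.60 and 0.49 for OR-2100 minus OR-2003. Of the 18 member probes, 4 lay above the first range, from *MEG3* and *MEG9*, 2 above the other and 0 below either. OR-2003 and DAC were closer, with OR-2003 higher at 13 of 18 and a median of 0.07 (-0.19 to 0.17). Under median scaling this order turned, with OR-2003 higher at 7 of 18 and a median of -0.04. OR-2100 stayed above DAC at 17 of 18 member probes in the 4 other settings of scaling and background, and above OR-2003 at 16 or 17. The scanner software gave its spike-in controls a slope of 0.921 with DAC, 0.913 with OR-2003, 0.955 with OR-2100 and 0.899 on the mock array, the last marked by it as out of range. The part of these slopes in the drug order was not tested.

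**Figure D4:**
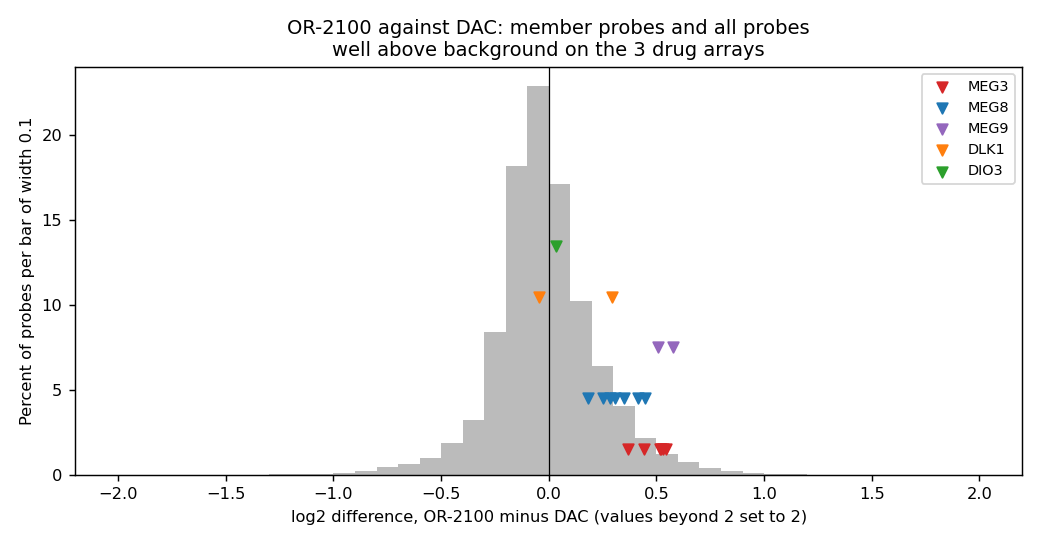
Log2 difference of OR-2100 minus DAC (horizontal axis) for the 30696 probes well above background on the drug arrays (grey bars, percent of probes per bar of 0.1) and for the 18 member probes measured there (triangles, whose height has no meaning). The members lie from -0.05 to 0.58, with 17 of 18 to the right of 0.

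Genes linked to the members by function or place were read from lists, with the probe of highest mean signal for each gene. Read in this way, DAC, OR-2003 and OR-2100 induced 5.77%, 5.89% and 5.81% of all 25006 named genes and reduced 5.96%, 6.05% and 6.82%. None of 12 neighbours on 14q32 was induced, and their median log2 difference was -0.08, 0.13 and 0.13. Of 9 regulators of imprint upkeep with a probe, 1 was induced by each drug, *NLRP7*, a maternal-effect gene, at least 19.7, 21.6 and 19.7-fold. *DNMT1*, the maintenance methyltransferase and target of DAC, was at 0.810, 0.885 and 0.769-fold, and *UHRF1*, its recruiter, at 0.892, 0.839 and 0.695-fold. *ZNF445* and *TRIM28*, which guard imprints, were at 0.810 to 0.918-fold. The median log2 difference of this list was -0.16, -0.19 and -0.25, close to the -0.13, -0.10 and -0.25 of all probes.

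Of 16 Notch ligands, receptors and targets, to which *DLK1* is related, 4 were induced by each drug, beside the 5.77 to 5.89% of all named genes. The related *DLK2* was 2.24, 2.27 and 2.14-fold higher with the 3 drugs, the ligand *DLL3* at least 26.3, 25.2 and 26.3-fold, the receptor *NOTCH4* 3.37, 3.28 and 3.65-fold and the feedback gene *NRARP* 2.36, 2.38 and 2.20-fold. The target *HEY1* was reduced by all drugs, to 0.398, 0.485 and 0.418-fold, and *HES1* by DAC, to 0.498-fold, with 0.569 and 0.523-fold for the other drugs. The list thus had members on both sides, and its median log2 difference was 0.17, 0.43 and 0.06.

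Among 10 relatives of *RTL1* with a probe, genes derived from the same kind of retrotransposon, 3 were induced by each drug, beside the same 5.77 to 5.89%, and 3 were not well above background on any array. *PEG10*, an imprinted gene of another chromosome, was 4.91, 4.68 and 4.97-fold higher, *RTL5* 2.72, 2.97 and 2.46-fold and *LDOC1* at least 32.2, 30.7 and 28.1-fold. *RTL8A* was reduced, to 0.395, 0.386 and 0.372-fold. *RTL8B* was at least 3.06, 3.25 and 3.51-fold higher, below the level threshold. The median log2 difference was -0.12, -0.11 and 0.14. *RTL3*, *RTL4* and *RTL9* were the 3 at background on all arrays, as *RTL1* itself was.

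Of 4 thyroid hormone genes with a probe, beside *DIO3*, 0 were induced. *THRA*, a thyroid hormone receptor, was at 0.491, 0.540 and 0.437-fold and was reduced by DAC and OR-2100, and *DIO1* was not well above background on any array. *THRB*, a further receptor, was at least 1.80, 2.01 and 1.68-fold higher, below the level threshold. The median log2 difference of the 4 genes was -0.36, -0.17 and -0.42.

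The genes most like the brightest *MEG3* probe in pattern over the 4 arrays were sought by Euclidean distance. The distance was taken between log2 levels, each probe centred on its own mean. The search took only the 27921 probes that every array measured well above background. All *MEG8* and *MEG9* probes were outside it, and no distance was taken for them. *TKTL1*, a transketolase-like enzyme, was closest at 0.437, with log2 differences of 10.85, 10.86 and 10.75 for DAC, OR-2003 and OR-2100. *VCX2* followed at 0.775, *FMR1NB* at 1.19, *CTAG1A* at 1.29 and *CT45A5* at 1.36. The latter 4 are genes of the X chromosome read mainly in testis, and *VCX2*, *CTAG1A* and *CT45A5* have near-identical relatives, which makes their single values uncertain. The log2 difference of OR-2100 minus DAC was -0.10 to 0.02 at these 5 probes and 0.44 at the *MEG3* probe. Outside the search, this difference was 0.18 to 0.45 at the *MEG8* probes and 0.51 and 0.58 at the *MEG9* probes. *MEG8* probe A_22_P00005231 differed from a mock signal at background by 10.21, 10.37 and 10.50, beside 10.39, 10.57 and 10.84 for the *MEG3* probe.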

How the data were processed

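Total RNA of 4 cultures, which the study calls mock-treated or non-treated, DAC, OR-2003 and OR-2100, was hybridised by the authors to 1-colour Agilent arrays, 1 per condition, and read with Feature Extraction 12.1.0.3. The deposited files hold spot intensity, background-corrected by this software but not normalized between arrays, and the spot flags (other). From there, control spots and spots marked non-uniform or as outliers were left out, log2 intensities of the spots of a probe were averaged, and each array was shifted so that the 75th percentile over gene probes was 0. Being well above background required more than 0.5 of the unmarked spots of a probe to be so by the deposited flag. The number of arrays limits the precision.

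Gene names came from a RefSeq table for 34892 of 58201 probes, and promoter windows came from RefSeq, GRCh38.p14. The genes named are all probes of the 6 members, design transcripts named lnc- plus a member symbol, the 5 genes most like the brightest *MEG3* probe, and genes past 2-fold in 5 lists (neighbours, imprint upkeep, Notch, *RTL1* relatives, thyroid hormone). A further list and 1 gene of the thyroid hormone list are not reported here. Others are named as background or examples. *ZFP57*, *RTL8C* and *DIO2* of these lists had no probe matched. Members and lists were chosen with earlier results of these data known. No test was run between conditions.

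Alternatives were a 75th percentile over bright probes (well above background on all arrays), median scaling, quantile normalization, normexp with an offset of 50 (limma 3.58.1, R 4.3.3) on the deposited median intensity, marked spots kept, the median of spots, the series table, a 4-fold threshold, a level threshold of 0 or none, and dim probes left out. The genes between *DLK1* and *DIO3*, and a count of probes that went from background to well above it, were added after seeing the data, as was the comparison of drugs over probes induced by all 3. Counting was tested on simulated data, where a 4-fold rise was given only to probes with a mock level above 0. Member probes had mock levels of -2.25 or lower, so the simulation does not cover them. Python 3.11.15, numpy 2.4.6 and pandas 2.3.3 were used.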

Additional observations from a re-analysis of the deposited data

Results flagged for a closer look

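At the measured *DIO3OS* probe, A_24_P759584, the differences to mock had opposite signs for 2 drugs: it was 0.11 lower with DAC and 0.32 higher with OR-2003 on the log2 scale, and these differences were 0.42 apart. The signal of this probe was low on all arrays, 10.6 to 15.1 intensity units. The gap of 0.42 lay within the central 95% of probes for OR-2003 minus DAC, -0.38 to 0.50. Each condition is 1 array, and the difference was not tested. The other *DIO3OS* probes were not well above background on any array.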

How the results depend on the processing

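Quantile normalization changed neither the brightest *MEG3* difference nor the counts of induced probes by more than noise between spots or 1.5 times. Keeping marked spots and the median of spots did not either. Each member probe had 1 spot, so these settings reach it only through the scaling. They moved the median difference to mock of all probes by at most 8.9e-05 and so test little. The deposited series table holds the same values for all 62976 spots and tests nothing. The 4-fold threshold, a level threshold of 0 or none and the count of probes that went from background to well above it also kept both counts within 1.5 times. With the percentile of bright probes, the brightest *MEG3* difference was 10.59, 10.77 and 11.06 for DAC, OR-2003 and OR-2100, the induced member probes were 11, 11 and 11, and those between *DLK1* and *DIO3* were 21, 24 and 24. This setting also made the level threshold of -1 stricter. It moved the median difference to mock of all probes by 0.20, 0.20 and 0.22, and median scaling moved this median by -0.12, -0.22 and -0.09. With median scaling, the *MEG3* difference for OR-2003 was 10.35, and with normexp the differences were 8.56, 8.72 and 9.02. Leaving out dim probes left 4 induced member probes and 4 between *DLK1* and *DIO3* with each drug, by its own construction, since 15 member probes were at background in mock-treated cells. The sign of *RTL1* turned with the percentile of bright probes, to 0.076 for DAC and 0.097 for OR-2003, and that of *DIO3* probe A_33_P3246513 with normexp, to -0.055, -0.0065 and -0.15. Both probes were at background on all arrays. Other causes were not tested. Normexp gave smaller differences, from 1.94 to 9.02 for *MEG3*, 1.62 to 5.60 for *MEG8*, 1.34 to 5.01 for *MEG9* and 0.16 to 4.61 for the snoRNA probes, all still higher with every drug. No paired analysis was possible because no condition has more than 1 array. Signals near background on the mock array limit every fold given as a bound.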
